A study of Rattus norvegicus with 6 samples.

Results

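KRAB zinc finger genes encode a large family of DNA-binding repressors in mammals. Their proteins carry a Krüppel-associated box (KRAB), usually ahead of a tandem array of C2H2 zinc fingers that reads DNA. Among 22427 genes that had a trimethylated histone H3 lysine 27 (H3K27me3) peak in at least 1 of 4 libraries of neonatal rat cardiomyocytes, 170 had the text "Krueppel-associated box" among the protein domain names that the authors listed and a symbol not starting with Prdm. The exception left out 1 entry, Prdm9. A C2H2 zinc finger was named for 134 of the 170, and 36 lacked one in their domain text. Of those 36, 31 had the box as their sole domain name. The others were Ssx1 and Ssxa1, which carry the SSXRD motif, the transposase-derived Pogk, Zfp862 with a finger of another type, and an entry without a symbol. The name of the family is therefore borne out by the domain text for most members, not for every one. A gene symbol was given for 125 entries and 45 had none. Zfp866 and Zfp709l1 had 2 entries each.

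Primary cardiomyocytes from the hearts of newborn Sprague Dawley rats, grown in medium with 10% serum, had received phosphate-buffered saline (PBS, control) or 5 mM α-ketoglutarate (α-KG) for 24 h. α-KG is a cosubstrate of the Jumonji demethylases that remove methyl groups from histones. Each group held 2 H3K27me3 libraries, named control 1, control 2, α-KG 1 and α-KG 2 here, and the 2 input samples were not analysed here. What the authors deposited is a list of genes with a peak for each library, so a gene was either listed or not listed in a library. Peak height, peak position and read depth are unknown, and a gene that was not listed may have fallen below detection. The labels do not say whether replicates were separate cultures, so p-values measure only the spread between these libraries. In chromatin from many cells, fewer cells carrying the mark and less mark per cell cannot be told apart.

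The KRAB domain recruits the corepressor TRIM28, which brings in the H3 lysine 9 methyltransferase SETDB1, HP1 proteins and histone deacetylases, and many members silence transposable elements. Family members arose by tandem duplication and lie in clusters, whose bodies are classically marked by H3 lysine 9 methylation. H3K27me3 belongs to the Polycomb system, a separate route of repression. Near-identical copies can split reads between genes, so the state of a single member is uncertain where a close copy exists.

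Each library listed most of the 170 KRAB members, which by the rule had a peak in at least 1 library. A smaller share of them than of other zinc finger genes was listed in all 4 libraries. Of the 170 members, 88 (51.8%) were listed in all 4 libraries. Over all entries that share was 62.8%, and over the 385 other C2H2 zinc finger genes it was 73.2%. A further 30 members were in 3 libraries, 28 in 2 libraries and 24 in 1 library (14.1%, against 13.0% of all entries). Genes with no peak in any library are in none of these denominators.

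Control 1 listed 123 members (72.4%), control 2 listed 137 (80.6%), α-KG 1 listed 128 (75.3%) and α-KG 2 listed 134 (78.8%). The α-KG values lay inside the range of the controls. In the same library order, 76.9%, 82.2%, 80.8% and 85.5% of all entries were listed, above the KRAB share each time. The group means were 130.0 ± 9.9 members in control and 131.0 ± 4.24 in α-KG (SD, n = 2 each). Their difference of 1.0 member was smaller than the spread between replicates (exact two-sided permutation p = 1.0). With 2 against 2 libraries this test cannot give less than 0.333. The direction turned when a library was left out, with -6.0 members without control 1 and -2.0 without α-KG 2, against 8.0 without control 2 and 4.0 without α-KG 1.

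The lists differ in length, from 17245 genes in control 1 to 19181 in α-KG 2. Per 1000 listed genes, KRAB members numbered 7.13 in control 1, 7.43 in control 2, 7.06 in α-KG 1 and 6.99 in α-KG 2. Both α-KG libraries thus lay below both controls by this measure, with a difference of -0.256 per 1000 (exact two-sided permutation p = 0.333, the smallest this design allows; 0.444 after Benjamini-Hochberg adjustment over 4 comparisons of α-KG with control).

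The other C2H2 zinc finger genes are all entries with C2H2 fingers and no box in their domain text. They are a mixed set and may include genes whose box was not named. They were listed at 81.6% in control 1, 87.3% in control 2, 84.9% in α-KG 1 and 93.5% in α-KG 2. The KRAB share was lower in 4 of 4 libraries, with differences of -9.21 percentage points in control 1, -6.68 in control 2, -9.64 in α-KG 1 and -14.7 in α-KG 2. The mean difference was -10.1 ± 3.35 points (SD, n = 4; exact two-sided sign-flip permutation p = 0.125, the smallest that 4 libraries allow). Against all 20462 other entries with a protein domain the KRAB share was also lower in 4 of 4 libraries, by a mean of -4.71 ± 2.12 points (exact sign-flip permutation p = 0.125). The gap to the other C2H2 genes was wider under α-KG by -4.22 points (control -7.945 ± 1.78, α-KG -12.16 ± 3.57, n = 2 each; exact permutation p = 0.333, adjusted 0.444). It was -1.36 with genes that have a symbol and -1.7 without α-KG 2.

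**Figure D1:**
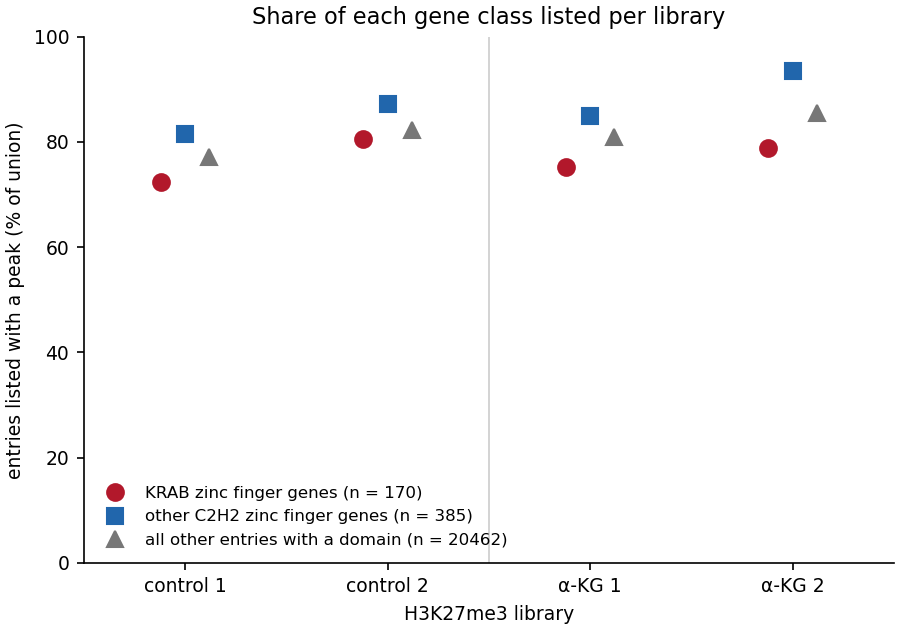
Percentage of each gene class listed with an H3K27me3 peak (y axis) in each of the 4 libraries (x axis), as a share of the entries of that class listed in any library; each point is 1 library. KRAB genes sit between 72.4% and 80.6%, below the other C2H2 zinc finger genes in each library.

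Lists of KRAB members overlapped less between libraries than lists of other zinc finger genes. The Jaccard index divides the members found in both lists of a pair by those found in either. It was 0.793 between the controls and 0.712 between the α-KG lists. Control 1 gave 0.662 when paired with α-KG 1 and 0.647 when paired with α-KG 2, and control 2 gave 0.732 and 0.673. The α-KG lists were thus less alike than control 2 and α-KG 1, as was also so over all entries (0.775 against 0.806). For other C2H2 genes the index was 0.783 to 0.884 over the same 6 pairs, and each pair had a higher index than for KRAB genes. Over all entries it was 0.72 to 0.813, also higher than for KRAB genes in each pair. Between the controls these values were close (0.813 over all entries, 0.793 for KRAB genes). Each library enters several pairs, and no test was run on them.

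Loss of listing under α-KG means that both controls and no α-KG library held the gene. It was seen for 9 of the 115 members in both controls (7.83%). Over all 16005 entries in both controls it was 3.22%, and over the other C2H2 genes it was 8 of 305 (2.62%). The 7 lost members with a symbol were Zfp112, Zfp317, Zfp658, Zfp78, Zfp867, Zfp933 and Zfp943. The other two were ENSRNOG00000048261 and ENSRNOG00000048765, which have no symbol. By this definition control 1 and control 2 listed each of these 9 and α-KG 1 and α-KG 2 did not. That separation restates how the genes were chosen.

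Gain of listing, the reverse pattern, was seen for 9 of the 109 members in both α-KG libraries (8.26%). Over all 16287 entries in both α-KG libraries it was 4.48%, and over the other C2H2 genes it was 8 of 314 (2.55%). The gained members were ZFP324, Zfp354b, Zfp386, Zfp454, Zfp61, Zfp709, Zfp791, Zfp862 and Zfp9. All 9 had a symbol, and among the 26 entries without a symbol in both α-KG libraries 0 were gained. At the 4.48% over all entries, so few entries cannot show a difference. Zfp862 encodes a KRAB protein with domains related to hAT transposases. Loss and gain both exceeded the share over all entries, and equal numbers of members went each way. These counts carry no test, because members are not replicates.

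With 1 library left out, the lost share of KRAB members ranged from 8.94% to 16.5% and the gained share from 9.17% to 18.3%, since the pattern is then easier to meet. Leaving out control 1 gave 10.9% of KRAB members lost against 5.56% of all entries, and 9.17% gained against 6.81%. Leaving out control 2 gave 8.94% lost against 5.24%, and 18.3% gained against 11.2%. Leaving out α-KG 1 gave 16.5% lost against 8.55%, and 14.9% gained against 11.9%. Leaving out α-KG 2 gave 14.8% lost against 6.72%, and 10.9% gained against 6.53%. In each of these 4 settings both KRAB shares lay above those of all entries. Genes lost or gained with all 4 libraries stay so in each setting, so the settings are not independent of the main count.

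Members listed in 1 to 3 libraries fell into every possible combination of libraries. The most frequent combinations were α-KG 2 alone and control 2 with both α-KG libraries, with 11 members each (6.47%). Over all entries these combinations held 6.96% and 4.91%, so the share in α-KG 2 alone was close to that of all genes. Both controls with α-KG 1 held 10 members and both controls with α-KG 2 held 8. Zfp964 was the sole member missing from control 2 alone and Zfp677 the sole member in control 1 and α-KG 1. Other C2H2 genes were listed in α-KG 2 alone at a similar share (29 of 385, 7.53%), but in both controls with α-KG 1 at 1.56%, against 5.88% of KRAB genes and 3.8% of all entries.

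**Figure D2:**
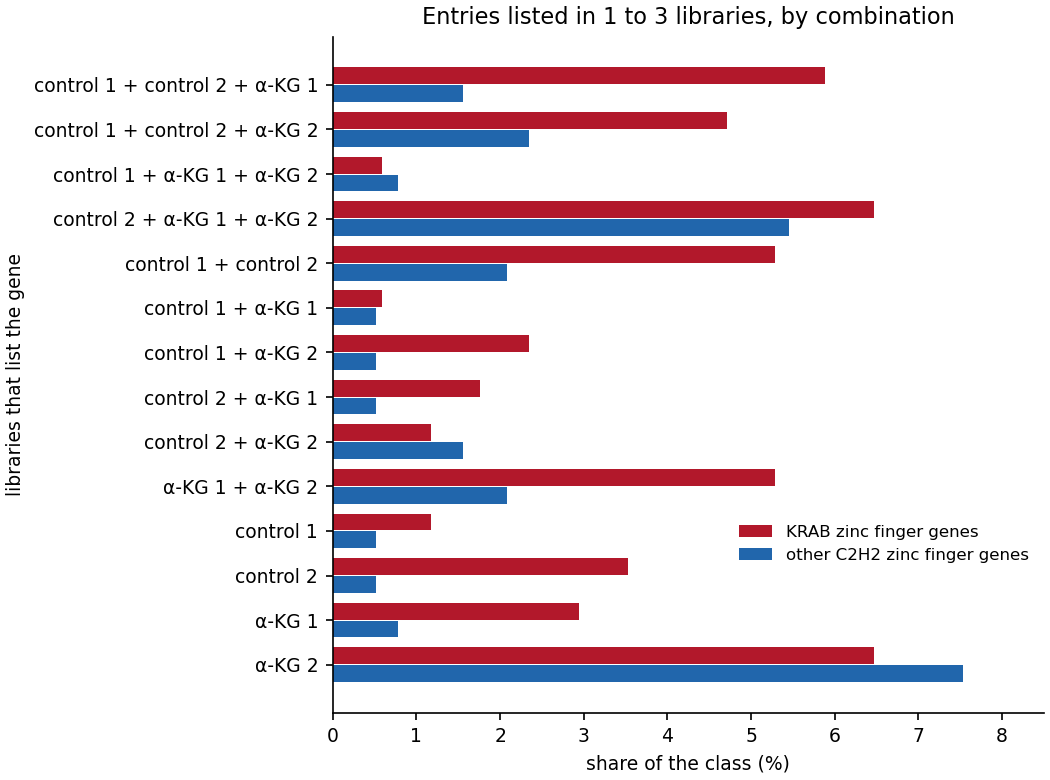
Share of KRAB genes (red) and of other C2H2 zinc finger genes (blue) listed in each combination of 1 to 3 libraries; the x axis is percent of the class and each pair of bars is 1 combination. Red bars exceed blue ones for both controls alone (5.29% against 2.08%) and both α-KG libraries alone (5.29% against 2.08%), while α-KG 2 alone holds 6.47% and 7.53%.

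Well-studied members differed widely in how often they were listed. Zfp57 and Zfp445, which protect the DNA methylation of imprinted genes, were each listed in α-KG 2 and in none of the other libraries. The same pattern was seen for Rbak, whose product binds the retinoblastoma protein, and for Zfp248, Zfp54, Zfp605 and RGD1311188. α-KG 2 had the longest list of all genes, and the 2 α-KG libraries do not agree on these members. Of 28 symbols chosen for their place in the literature, which name Zfp496 also as Znf496, 20 had an entry with the box. No entry was found under 6 symbols, Zfp568, Zfp30, Zfp74, Zik1, Zkscan5 and the second name Znf496. Of the 20 with the box, 9 were in all 4 libraries, beside 51.8% of all members and 62.8% of all entries. The 9 were Zim1, an imprinted gene, Zfp90, Zfp354c, Zfp382, Zfp28, Zfp37, Zfp39, Zkscan1 and Zfp496. Krba1 and Zfp13 were listed without the box in their domain text, Krba1 in all 4 libraries and Zfp13 in control 2 and α-KG 2, and so are not members.

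The Zfp354 genes, close relatives of each other, showed 3 different patterns. Zfp354a, first known as a kidney gene, was listed in both controls and α-KG 2. Zfp354b was gained, with a listing in α-KG 1 and α-KG 2. Zfp354c was listed in all 4. Their sequences are similar, and how shared reads were assigned is not given in the sources used here.

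Members missing from α-KG 2 alone included Zfp110, which binds a neurotrophin receptor, Zfp300, Zfp418, Zfp426, Zfp763 and 1 of the entries for Zfp709l1. Those missing from α-KG 1 alone included 2610008E11Rik, RGD1566386, Zfp286a, Zfp799 and Zfp938. Zkscan3, a repressor of autophagy genes, ZFP87, Zfp111, Zfp251, Zfp483 and Zfp59 were missing from control 1 alone. Zfp113 and Zfp334 were listed in control 2 and α-KG 2, Zfp689 and Zfp879 in control 1 and α-KG 2, and Zfp715 in control 2 and α-KG 1. Zfp263 and Zfp472 were in control 1 alone, Zfp7 and Zfp846 in control 2 alone, and Zfp773, Zfp870 and Zfp94 in α-KG 1 alone. Single libraries thus added members in both groups.

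**Figure D3:**
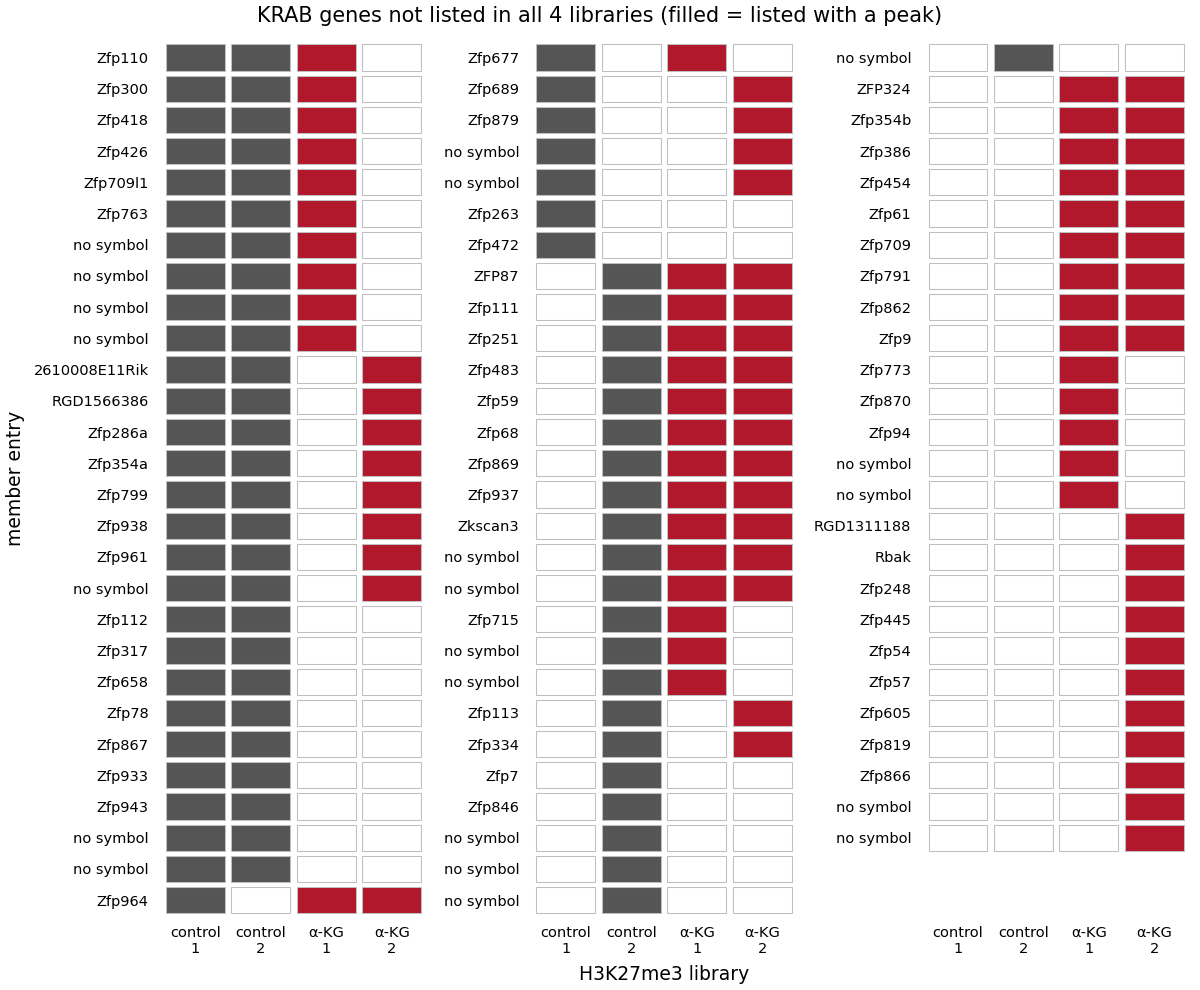
The 82 KRAB entries not listed in all 4 libraries, 1 per row, with the 4 libraries as columns; a filled cell means that the gene was listed with a peak (grey control, red α-KG) and a white cell that it was not. The 9 entries filled in both controls alone and the 9 filled in both α-KG libraries alone stand among many rows that split the libraries in other ways.

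Few members had an accessory domain named beside the box, and their listing is given as counts. All 6 members with the DUF3669 domain (Zfp398, ZFP212, Zfp746, Zfp956, Zfp282 and Zfp777) were listed in all 4 libraries, beside 62.8% of all entries. These 6 lie together on a chromosome, so domain and location cannot be told apart. Both SSX genes, Ssx1 and Ssxa1, relatives of human cancer-testis antigens, were also listed in all 4, and so small a set cannot show a difference. Of the 13 members with a SCAN domain, which pairs such proteins into dimers, 9 (69.2%) were in all 4 libraries, beside 62.8% of all entries. Of those in both controls 0 of 10 were lost, and of those in both α-KG libraries 0 of 11 were gained. At the 3.22% and 4.48% over all entries, so few genes cannot show sparing. Control 1 listed 10 of the 13, and control 2, α-KG 1 and α-KG 2 listed 12 each. The 4 SCAN members outside that count were Zfp110, Zfp483, Zkscan3 and Zfp445. The 8 members with the related form of the box included 6 in all 4 libraries, beside 62.8% of all entries. Zfp398, Zfp777, Ssx1 and Ssxa1 are among these 6 and were already counted above. The other 2, ZFP324 and Zfp354b, were gained, beside 4.48% of all entries in both α-KG libraries. With 8 members these counts cannot show a difference.

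Members with the box as sole domain name were listed least steadily. Of these 31, 12 (38.7%) were in all 4 libraries, against 72 of 134 (53.7%) with C2H2 fingers. In library order, the controls first, 20, 26, 21 and 19 of them were listed. α-KG 2 therefore held the fewest of these, although it held the most members with fingers, at 99, 107, 102 and 110 of 134 in the same order. A symbol was missing for 27 of the 31. Over all 45 members without a symbol the libraries listed 33, 39, 34 and 31, and over the 125 with a symbol 90, 98, 94 and 103. These subclasses were described after their values were seen and carry no test.

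Members that lie near each other on a chromosome often differed in at least 1 library. Of the 125 members with a symbol, 109 (87.2%) matched 1 gene of the RefSeq annotation of assembly GRCr8, which differs from the rn6 build of the study and served here for gene order and promoter sequences. The 61 members that were not placed, 45 of them without a symbol, may lie beside placed ones. Members placed one after another were called neighbours when at most 3 other protein-coding genes lay between them. Among 43 pairs of neighbouring KRAB genes, 12 (27.9%) had the same pattern of listing, and in all 12 that pattern was all 4 libraries. Over all entries with a symbol, 7506 of 15855 neighbouring pairs (47.3%) had the same pattern, and for other C2H2 genes it was 36 of 57 (63.2%). These shares move with the share of each class in all 4 libraries (51.8%, 62.8% and 73.2%). Neither the shares nor their order are therefore read as a trait of neighbours, and differing pairs would be frequent anyway. In the other 31 KRAB pairs the genes differed in at least 1 library, though Zfp287 and Zfp286a, for example, shared 3. Of the 41 entries with no placed KRAB neighbour, 23 (56.1%) were in all 4 libraries, against 33 of 68 (48.5%) of those in a group.

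The largest group held 7 genes. Zfp398, Zfp282, ZFP212, Zfp956, Zfp777 and Zfp746 lay next to each other with at most 1 other coding gene between, and these are the 6 DUF3669 members. Neighbours can share a broad peak, and the lists do not show whether these did. Zfp862, the last of the group and 3 coding genes further on, was gained. Zfp746 encodes PARIS, a repressor of the mitochondrial regulator PGC-1α and a substrate of parkin.

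The 4 lost and 3 gained members placed in a group lay among genes with other patterns. A further 2 lost and 4 gained members had no placed KRAB neighbour, and the rest were not placed. In the group Zfp112, Zfp111, Zfp61 and Zfp94, the first was lost and the third was gained. Zfp111 was listed in all libraries but control 1, and Zfp94 in α-KG 1 alone. Zfp78, a lost member, lay between Zfp28 and Zfp583, both in all 4 libraries, with 0 other coding genes between. Zfp867, also lost, lay next to Zfp496, which was in all 4, and Zfp658, also lost, lay near Zfp819, which was in α-KG 2 alone. Zfp9, gained, lay next to Zfp248, which was in α-KG 2 alone. None of the neighbours named beside these genes had the same full pattern. Zfp94 and Zfp248 did share part of the gain of Zfp61 and Zfp9 beside them. Each was in no control and in a single α-KG library. Over all entries the lost and gained patterns held 2.3% and 3.25%, so a matching neighbour would be rare anyway.

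**Figure D4:**
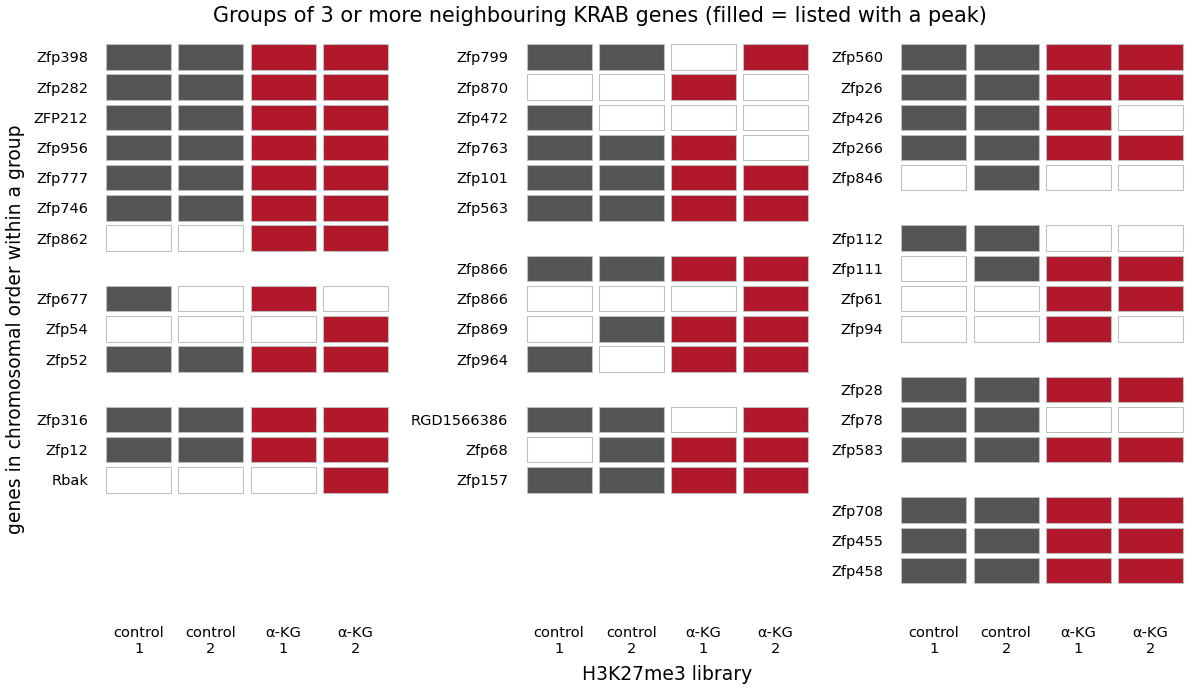
Groups of 3 or more neighbouring KRAB genes in the gene order of GRCr8, 1 gene entry per row and gaps between groups, with the 4 libraries as columns; filled cells mark a listed peak (grey control, red α-KG). The group of 7 that opens with Zfp398 is filled throughout except Zfp862 in both controls, and the group that opens with Zfp112 holds 4 different patterns.

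Promoter sequences are shown for a few members picked by hand, which do not stand for all members with their pattern. They come from RefSeq (GRCr8), each covering the 250 bases before the annotated start, 5′ to 3′ on the gene's strand. Capitals mark CpG dinucleotides, which are dense at the promoters where Polycomb marks are usually found. The first set comes from the group that opens with Zfp112, without Zfp111, and holds Zfp112 (lost; chr1:88804583-88804832, plus strand), Zfp61 (gained; chr1:88985660-88985909, minus strand) and Zfp94 (α-KG 1 alone; chr1:89007516-89007765, minus strand).
Zfp112: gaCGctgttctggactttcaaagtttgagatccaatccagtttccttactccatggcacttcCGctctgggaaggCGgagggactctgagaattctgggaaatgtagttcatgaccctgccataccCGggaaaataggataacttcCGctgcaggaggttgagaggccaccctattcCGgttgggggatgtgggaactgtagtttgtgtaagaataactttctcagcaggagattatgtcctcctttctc
Zfp61: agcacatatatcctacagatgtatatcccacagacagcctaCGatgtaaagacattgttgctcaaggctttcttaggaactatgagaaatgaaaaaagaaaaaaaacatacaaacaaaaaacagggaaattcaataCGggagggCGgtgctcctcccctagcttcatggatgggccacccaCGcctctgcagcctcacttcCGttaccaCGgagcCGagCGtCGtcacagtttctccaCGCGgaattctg
Zfp94: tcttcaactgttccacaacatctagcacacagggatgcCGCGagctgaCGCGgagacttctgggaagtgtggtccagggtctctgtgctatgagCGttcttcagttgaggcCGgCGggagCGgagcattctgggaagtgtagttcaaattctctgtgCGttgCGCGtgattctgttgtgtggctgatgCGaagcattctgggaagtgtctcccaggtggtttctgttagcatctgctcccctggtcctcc
Zfp112 has 6 CpG in this window, Zfp61 has 11 and Zfp94 has 12. The median over all 33469 windows of the same length in the table is 5, with quartiles of 2 and 15.

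The second set holds Zfp317 (lost; chr8:25867428-25867677, plus strand) and the imprint guardians Zfp57 (chr20:1534919-1535168, minus strand) and Zfp445 (chr8:131350750-131350999, minus strand), both in α-KG 2 alone.
Zfp317: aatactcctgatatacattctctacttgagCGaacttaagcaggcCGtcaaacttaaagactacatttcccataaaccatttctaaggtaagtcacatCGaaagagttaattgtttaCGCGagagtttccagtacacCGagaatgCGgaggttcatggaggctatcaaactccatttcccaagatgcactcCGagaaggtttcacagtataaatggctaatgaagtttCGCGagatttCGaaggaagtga
Zfp57: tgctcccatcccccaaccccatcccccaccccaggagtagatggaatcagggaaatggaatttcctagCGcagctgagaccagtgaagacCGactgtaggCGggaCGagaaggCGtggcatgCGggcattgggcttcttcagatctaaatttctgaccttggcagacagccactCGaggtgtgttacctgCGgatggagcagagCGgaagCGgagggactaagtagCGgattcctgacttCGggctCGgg
Zfp445: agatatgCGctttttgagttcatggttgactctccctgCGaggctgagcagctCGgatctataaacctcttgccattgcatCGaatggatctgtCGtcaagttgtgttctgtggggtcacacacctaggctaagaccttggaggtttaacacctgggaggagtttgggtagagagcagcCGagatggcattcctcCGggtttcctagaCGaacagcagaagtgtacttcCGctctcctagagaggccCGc
These hold 11, 13 and 10 CpG.

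The third set holds Zfp777 (chr4:78373559-78373808, minus strand) and Zfp746 (chr4:78409833-78410082, minus strand), neighbours of the DUF3669 group listed in all 4 libraries.
Zfp777: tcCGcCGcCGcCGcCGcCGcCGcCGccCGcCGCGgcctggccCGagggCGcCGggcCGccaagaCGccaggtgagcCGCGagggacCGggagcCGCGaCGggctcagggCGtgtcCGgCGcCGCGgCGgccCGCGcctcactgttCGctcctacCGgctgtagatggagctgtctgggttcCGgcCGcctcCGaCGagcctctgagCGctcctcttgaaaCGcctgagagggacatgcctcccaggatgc
Zfp746: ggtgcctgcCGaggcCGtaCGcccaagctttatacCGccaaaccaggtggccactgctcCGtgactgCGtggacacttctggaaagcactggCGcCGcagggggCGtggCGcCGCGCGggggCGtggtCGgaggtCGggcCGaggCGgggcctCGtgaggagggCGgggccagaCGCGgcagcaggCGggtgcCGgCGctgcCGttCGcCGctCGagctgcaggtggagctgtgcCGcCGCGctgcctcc
Zfp777 has 38 CpG and Zfp746 has 32, above the other 6 shown, and their GC contents are 76.4% and 74.4%. These adjacent genes are the only members in all 4 libraries shown, so no link between CpG and listing can be read here. The motif GGGCGG, searched on both strands (its reverse complement is CCGCCC) and itself holding a CpG, occurs in the windows of Zfp777, Zfp746 and Zfp61 and in 30.5% of all windows. Whether a peak covered any of these windows is unknown. A promoter was in the table for 75.2% of members with a symbol and 55.3% of all members, below the 80% needed, so a comparison of promoter composition across the family is void and was not made.

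Genes for the cofactors through which KRAB proteins act were in all 4 libraries about as often as all entries. Of the 27 genes on this list, 26 had an entry and Tasor had none under either of its symbols. Of the 27 entries (Kdm4d has 2), 17 (63.0%) were in all 4 libraries, beside 62.8% of all entries. Control 1 and control 2 each listed 20, α-KG 1 listed 22 and α-KG 2 listed 24. None of the 17 in both controls was lost and 1 of the 21 in both α-KG libraries was gained, beside the 3.22% and 4.48% of all entries. Lists this short cannot show sparing.

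The corepressor gene Trim28, the methyltransferase gene Setdb1 and its partner gene Atf7ip were listed in all 4 libraries. So were the HP1 genes Cbx1 and Cbx3, while the HP1 gene Cbx5 was in α-KG 2 alone. The deacetylase gene Hdac2 was in all 4 and Hdac1 was missing from control 2. The remodeller gene Chd3 was in all 4 and Chd4 was missing from control 1. Morc2 and Smarcad1 were also in all 4. The gained entry was Mphosph8, a reader of H3 lysine 9 methylation in the HUSH silencing complex, and its partner gene Pphln1 was in control 1 alone. Among DNA methylation genes, Dnmt3b was in all 4, Dnmt1 was missing from control 1, Dnmt3a was in control 2 and α-KG 2, and Uhrf1 was in α-KG 2 alone. The H3 lysine 9 methyltransferase genes Suv39h1, Suv39h2 and Ehmt2 were in all 4, and Ehmt1 was in α-KG 1 alone. Of the α-KG-dependent H3 lysine 9 demethylase genes, Kdm4a, Kdm4b and Kdm4d were in all 4 and Kdm4c was in control 1 alone.

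Markers of cell types cannot check the labelled cells here, since the mark is repressive and its listing at a marker gene says nothing of the cells it came from. Of 6 cardiomyocyte markers the lists held 4, 4, 3 and 4 in library order, and Myh6 had no entry. Of 5 fibroblast markers the libraries listed 4, 4, 3 and 4, and of 4 endothelial markers 3, 4, 3 and 4. Each library listed 1 of 3 smooth muscle and 1 of 3 immune markers. Col1a2, Acta2, Tagln, Cd68 and Adgre1 had no entry either. Their part in the KRAB patterns was not tested.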

How the data were processed

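The authors deposited, for each of 4 H3K27me3 libraries, a headerless list of genes with a peak, as Ensembl IDs with symbols and protein domains; it holds no score, position or count. Per the submitters' processing notes, CASAVA, BWA, MACS2 and build rn6 were used, without roles or versions. How peaks were called against input and assigned to genes is not given in the sources used here. Groups and replicate numbers came from the labels.

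Members were found by domain text. Members, lists and tests were chosen with earlier results of these data known. The software was pandas 2.3.3 and numpy 2.4.6 under Python 3.11.15. A lost member was in both control lists and no α-KG list, a gained member the reverse. Libraries were compared by exact permutation, members counted without a test. The counting steps were tested on simulated data. Named were all lost and gained members, up to 6 by symbol in each other pattern, and fixed lists of well-studied members and cofactors. RefSeq symbols were matched without regard to case, 4 by an older symbol. In neighbour pairs, doubled entries counted once.

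Alternatives left out each library in turn, or used a replicate block, members with fingers, entries with a symbol, and other comparison genes.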

Additional observations from a re-analysis of the deposited data

How the results depend on the processing

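The difference in listed KRAB members ran from -6.0 to 8.0 with 1 library left out and turned negative when control 1 (-6.0) or α-KG 2 (-2.0) was dropped. The cause was not tested. It was 3.0 for members with C2H2 fingers and 4.5 both for entries with a symbol and without predicted gene models. Lost members numbered 11 to 19 and gained members 10 to 20 with 1 library left out, because fewer libraries then define the pattern. They numbered 7 and 8 for members with fingers, and 7 and 9 for entries with a symbol. Members in all libraries used numbered 89 to 99 with 1 left out. The change of the gap to other C2H2 genes between control and α-KG (-4.22 points) kept its negative sign, from -6.74 to -1.7 with 1 left out, -2.57 for members with fingers, -1.36 for entries with a symbol and -2.95 against all other entries with a domain.

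With the replicate block the differences were 1.0 member (exact sign-flip permutation p = 1.0) and -4.22 points (p = 0.5, the smallest that 2 pairs allow in an exact test). The replicate deviations of the groups correlated at 0.0478 over all entries and -0.126 over KRAB entries. The labels do not say that a number marks a shared culture or day, so the numbers were not taken as pairs. A crossed pairing, chosen after seeing the data, also gave 1.0 member. Depth is unknown, so a gene that was not listed may lie below detection.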
